A study of Mus musculus with 6 samples.

Results

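Abhd6 and the other genes that make, break down or sense endocannabinoids were examined in liver RNA of mice with diet-induced steatohepatitis. The set holds 9 genes of the 43346 in the deposited table, taken by symbol: the synthetic enzymes Dagla, Daglb and Napepld, the hydrolases Mgll, Abhd6, Abhd12 and Faah, and the receptors Cnr1 and Cnr2. They were chosen from knowledge of the same comparison that is described here, with Abhd6 at the head of the set, and the value that put each gene in it is not recorded. Their differences between groups are therefore given as a description, with no test.

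The libraries labelled S100a11 shRNA (library numbers 2, 3 and 2600) came from liver given an adeno-associated virus 8 construct with a short hairpin RNA against S100a11, which encodes an S100-type calcium sensor. The scrambled shRNA libraries (28, 30 and 31) carried a hairpin without this target. All 6 libraries came from liver of mice on the FFC diet, a model of metabolic dysfunction-associated steatohepatitis, so no liver on a control diet or without virus is compared. The sources used here give neither strain, sex and age nor the promoter of the hairpin and the length of treatment. The labels do not state that each library is its own animal, so any p-value below reflects only how these libraries spread.

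Endocannabinoids are lipid messengers that cells make on demand from their membranes. 2-Arachidonoylglycerol is released from diacylglycerol by the diacylglycerol lipases Dagla and Daglb and is hydrolysed by monoacylglycerol lipase (Mgll) and by the α/β-hydrolases Abhd6 and Abhd12. Anandamide, an N-acylethanolamine, can be released by Napepld and is hydrolysed by Faah, and both lipids act on the receptors CB1 (Cnr1) and CB2 (Cnr2). In liver, CB1 signalling is known for promoting lipid synthesis and fibrosis, CB2 is found mainly on immune cells, and the monoacylglycerol hydrolases also take part in ordinary triglyceride breakdown.

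Abhd6 lies on the plus strand of chromosome 14 (mm10, 8002902 to 8056555), and Mgll on the plus strand of chromosome 6 (88724412 to 88828360). Their promoter windows are shown because these were the hydrolases of 2-arachidonoylglycerol with more RNA in the S100a11 shRNA libraries. Each window runs 5′ to 3′ from 250 bases before to 50 bases after a RefSeq transcript start (build GRCm38.p6), at chr14:8002638-8002937 for Abhd6 and chr6:88724162-88724461 for Mgll, both on the plus strand. Of the RefSeq starts of each gene the one nearest to the deposited gene start was used, which is 14 bases away for Abhd6 and 0 for Mgll. Capitals mark every match, on either strand, to the GC box GGGCGG, the CCAAT box CCAAT, the TATA box TATAAA or the E box CACGTG.
Abhd6: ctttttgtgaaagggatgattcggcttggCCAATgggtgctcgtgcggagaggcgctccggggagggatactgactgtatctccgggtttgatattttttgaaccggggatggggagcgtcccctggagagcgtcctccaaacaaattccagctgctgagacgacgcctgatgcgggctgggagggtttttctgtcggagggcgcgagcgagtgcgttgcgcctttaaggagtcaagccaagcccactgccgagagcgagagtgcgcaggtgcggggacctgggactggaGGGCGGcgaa
Mgll: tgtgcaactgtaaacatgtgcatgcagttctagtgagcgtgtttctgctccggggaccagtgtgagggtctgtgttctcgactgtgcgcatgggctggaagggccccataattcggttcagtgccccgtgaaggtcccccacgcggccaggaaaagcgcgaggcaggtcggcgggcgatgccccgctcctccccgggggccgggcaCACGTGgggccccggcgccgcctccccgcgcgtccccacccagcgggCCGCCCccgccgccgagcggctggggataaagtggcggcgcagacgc
The Abhd6 window held 1 CCAAT box and 1 GC box, and the Mgll window 1 E box and 1 GC box. Among all 32851 RefSeq windows of this length, 37.4% held a CCAAT box, 35.7% a GC box, 13.6% a TATA box and 7.15% an E box. Neither window held a pair of AGGTCA half-sites spaced by 1 base, the repeat that PPAR and RXR bind, which 0.0396% of all windows held in this exact form. Both windows were rich in G and C, 60.7% of bases for Abhd6 and 70.0% for Mgll, against a median of 52.7%. Windows were found for 7 of the 9 genes.

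Depth was 53517387 to 69874237 counts in the S100a11 shRNA libraries and 57717111 to 78091845 in the scrambled libraries. Levels below are CPM, in which counts are divided by library totals corrected with TMM factors. S100a11 itself stood at 16.0, 3.55 and 3.41 CPM in libraries 2, 3 and 2600, against 15.9, 22.9 and 30.0 CPM in scrambled libraries 28, 30 and 31. The library labelled S100a11 shRNA 2 thus carried as much S100a11 RNA as scrambled library 28, and the fall did not pass the threshold (log2 change -1.57 ± 0.56, SE; edgeR adjusted p = 0.095). Each direction below is that of the labels, and log2 changes of the 9 genes are also given without library 2 where that moves them by over 1.5 times. Of 19352 genes tested, 1126 were called higher and 1602 lower at an edgeR adjusted p under 0.05, which is 5.82% and 8.28%, or 14.1% together. The 2728 calls became 4176 without library 2 and 1012 without library 3, and 1538, 724 and 1090 without scrambled library 28, 30 or 31. Scaled by library totals alone, the calls split into 397 higher and 3970 lower, with upper-quartile factors into 816 and 1980, and the median log2 change of all tested genes was -0.32 with totals alone, against 0.04 with TMM. Hepatocyte markers, which the tissue label calls for, were detected in 8 of 8 cases, with a summed level of 37001 to 48832 CPM in the S100a11 shRNA libraries and 29464 to 36148 CPM in the scrambled libraries. All 8 were higher by sign, 1 past the threshold, with a median log2 change of 0.41 (0.06 with library totals alone). Cholangiocyte markers were called lower in 7 of 8 cases (summed level 157 to 180 CPM in S100a11 shRNA libraries and 511 to 629 CPM in scrambled libraries).

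All 9 genes were detected and passed the filter on low counts. On the log2 scale 5 were higher and 4 lower in the S100a11 shRNA libraries, with a median change of 0.06. The CPM of the groups did not overlap for 7 of the 9 genes, 4 higher and 3 lower, beside 34.7% of all tested genes, and nothing is read from this count because the set was chosen knowing the comparison. With library totals alone the groups did not overlap for 6 of the 9 and for 43.2% of tested genes.

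**Figure D1:**
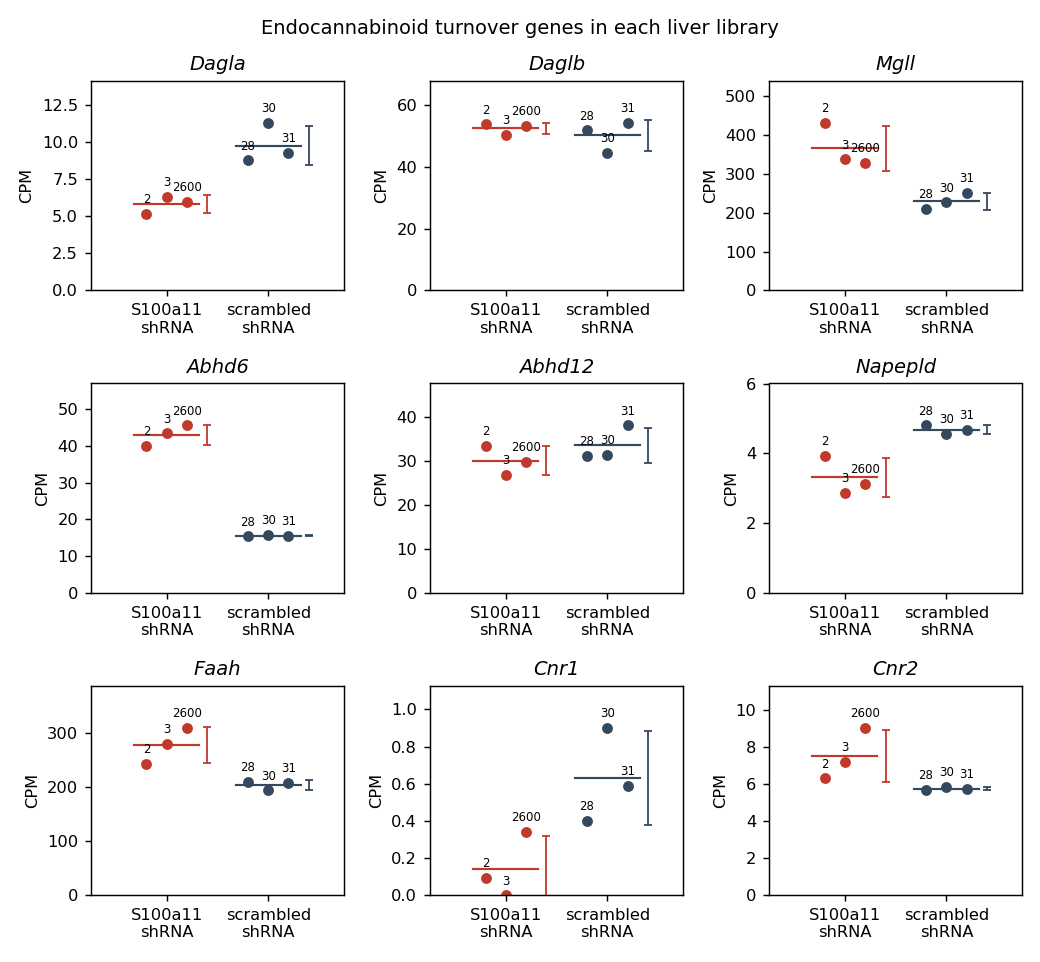
Level of each gene in CPM (TMM-scaled, linear axis from 0) in the 3 S100a11 shRNA libraries (red) and the 3 scrambled shRNA libraries (dark blue), with library numbers above the points; horizontal lines are group means and bars the SD, cut at 0 for Cnr1. Abhd6 lies at 40.0 to 45.6 CPM in the S100a11 shRNA libraries and at 15.4 to 15.9 CPM in the scrambled libraries, while Daglb and Abhd12 overlap.

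Abhd6 showed the widest separation among the hydrolases. This membrane-bound serine hydrolase cleaves monoacylglycerols, 2-arachidonoylglycerol included, as well as lysophospholipids. It stood at 40.0, 43.4 and 45.6 CPM in libraries 2, 3 and 2600, against 15.4, 15.9 and 15.6 CPM in scrambled libraries 28, 30 and 31. Every S100a11 shRNA library was above every scrambled library, library 2 included, although library 2 had S100a11 at the level of scrambled library 28. Abhd6 averaged 43.0 ± 2.82 CPM in S100a11 shRNA libraries and 15.6 ± 0.23 CPM in scrambled libraries (SD, n = 3 each), a 2.75-fold ratio and a log2 change of 1.46 ± 0.13 (SE). A larger change in either direction was seen in 1174 of the 19352 tested genes. The values rest on 2005 to 2716 counts per S100a11 shRNA library and 1036 to 1353 per scrambled library, and no annotated gene overlaps Abhd6. With library totals alone the log2 change was 1.10, and without library 2 it was 1.48. Hepatocyte markers were higher in the same libraries by the smaller median of 0.41 given above, and their part in the Abhd6 difference was not tested.

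The nearest protein-coding neighbours of Abhd6 on chromosome 14 had smaller log2 changes. Dnase1l3, a secreted DNase gene that lies 8329 bases before Abhd6 on the other strand, averaged 62.7 ± 11.8 CPM in S100a11 shRNA libraries and 42.5 ± 5.59 CPM in scrambled libraries (SD, n = 3 each; log2 change 0.56 ± 0.17, SE; edgeR adjusted p = 0.062). Rpp14, a ribonuclease P subunit gene that starts 23604 bases after Abhd6, averaged 9.10 ± 1.79 and 7.16 ± 0.89 CPM in these groups (log2 change 0.35 ± 0.20, SE; adjusted p = 0.27). Neither passed the threshold.

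Mgll, the main hydrolase of 2-arachidonoylglycerol in many tissues and the last lipase of triglyceride breakdown, stood at 431, 337 and 328 CPM in libraries 2, 3 and 2600, against 209, 227 and 252 CPM in scrambled libraries 28, 30 and 31. All S100a11 shRNA libraries were above all scrambled libraries, and the highest was library 2. Mgll averaged 365 ± 56.9 CPM in S100a11 shRNA libraries and 229 ± 21.6 CPM in scrambled libraries (SD, n = 3 each), with a log2 change of 0.67 ± 0.16 (SE). Without library 2 the log2 change was 0.51. With library totals alone it was 0.32 and the groups overlapped, since library 2600 held 269.6 CPM on that scale, against 270.1 and 279.2 CPM in scrambled libraries 30 and 31. The antisense gene Gm26588 overlaps 1449 bases of Mgll. Its 9.98 to 14.9 CPM in S100a11 shRNA libraries and 7.55 to 8.31 CPM in scrambled libraries are small beside Mgll. The log2 change of Gm26588 was 0.60 ± 0.18 (SE; edgeR adjusted p = 0.059). Reads shared between Gm26588 and Mgll were not tested for, and the strand setting is not given.

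Abhd12, whose enzyme mainly degrades lysophosphatidylserine and also hydrolyses 2-arachidonoylglycerol, gave overlapping groups. It lies on the minus strand of chromosome 2 (150832493 to 150904741). Levels were 33.5, 26.8 and 29.8 CPM in libraries 2, 3 and 2600, against 31.1, 31.4 and 38.1 CPM in scrambled libraries 28, 30 and 31. The log2 change was -0.16 ± 0.15 (SE). Without library 2 it was -0.27, without library 3 -0.08 and without scrambled library 31 -0.05. Upper-quartile factors gave -0.25, and library totals alone -0.51 with no overlap.

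The share of each hydrolase within a library does not depend on the scaling between libraries. Counts per kb of deposited gene length were summed over Mgll, Abhd6 and Abhd12. Abhd6 made up 15.6%, 20.3% and 21.3% of this sum in libraries 2, 3 and 2600, and 11.7%, 11.3% and 10.0% of it in scrambled libraries 28, 30 and 31. Abhd12 made up 9.97%, 9.60% and 10.6% in these S100a11 shRNA libraries, against 18.0%, 17.1% and 18.6% in these scrambled libraries. Mgll was the largest share in every library and overlapped between groups, at 68.0% to 74.4% in S100a11 shRNA libraries and 70.3% to 71.6% in scrambled libraries. The Abhd6 level was 1.89 ± 0.29 times that of Abhd12 per kb in S100a11 shRNA libraries and 0.62 ± 0.068 times in scrambled libraries (SD, n = 3 each). The order of these 2 hydrolases was therefore opposite in the groups, in 3 of 3 libraries of each.

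**Figure D2:**
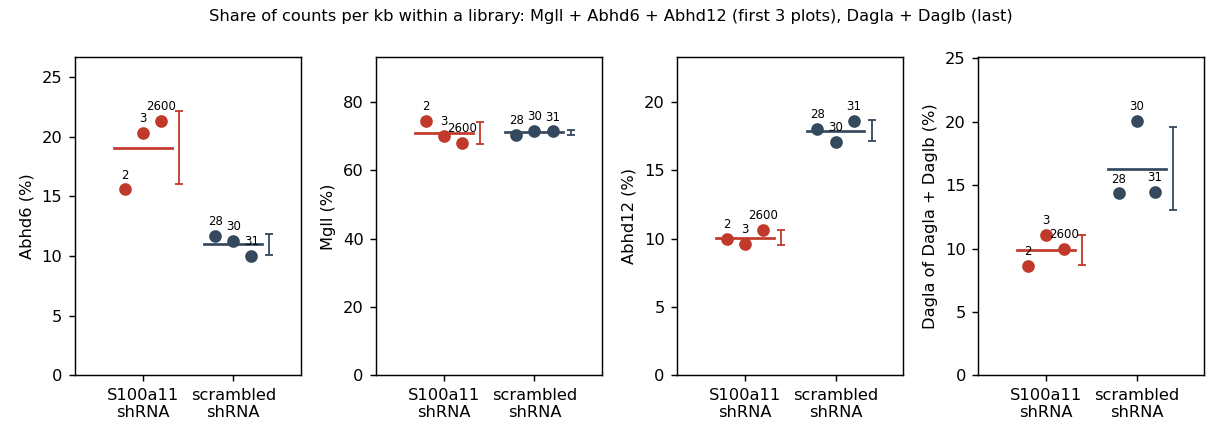
Shares within each library, in percent of counts per kb, of Abhd6, Mgll and Abhd12 in the sum of these 3 genes and of Dagla in the sum of Dagla and Daglb; red points are S100a11 shRNA libraries and dark blue points scrambled libraries, with group means (lines) and SD (bars). The Abhd6 share is higher and the Abhd12 and Dagla shares lower in every S100a11 shRNA library, while the Mgll shares overlap.

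Among the diacylglycerol lipases only the less abundant gene separated the groups. Dagla, the enzyme that makes most 2-arachidonoylglycerol in brain, lies on the minus strand of chromosome 19 (10245265 to 10304877). It stood at 5.16, 6.35 and 5.96 CPM in libraries 2, 3 and 2600, against 8.78, 11.3 and 9.27 CPM in scrambled libraries 28, 30 and 31. All S100a11 shRNA libraries were below all scrambled libraries, with means of 5.82 ± 0.61 and 9.79 ± 1.35 CPM (SD, n = 3 each) and a log2 change of -0.75 ± 0.18 (SE). Library totals alone gave -1.12. In GENCODE M21 the antisense gene AC132148.1 overlaps 2496 bases of Dagla. It has no count in the deposited table, and its part in the Dagla count was not tested.

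Daglb, the related lipase of macrophages and other peripheral cells, lies on the plus strand of chromosome 5 (143464493 to 143504442). It held 53.8, 50.4 and 53.3 CPM in libraries 2, 3 and 2600, against 51.8, 44.5 and 54.2 CPM in scrambled libraries 28, 30 and 31. The groups overlapped, and the log2 change was 0.06 ± 0.13 (SE). Its sign depended on the processing: it was -0.29 with library totals alone, where the groups did not overlap, -0.03 with upper-quartile factors and -0.01 without scrambled library 30. Without library 2 it was 0.02, and over all libraries left out in turn it reached 0.12 (without scrambled library 31). In GENCODE M21 Daglb overlaps Rac1 by 2309 bases on the opposite strand. The deposited span of Daglb ends at 143504442, against 143505942 in M21, and its overlap with Rac1 was not measured. Rac1 held 43.5 to 96.1 CPM in S100a11 shRNA libraries and 57.6 to 85.6 CPM in scrambled libraries. Its part in the Daglb count was not tested. Of the summed counts per kb of both lipases Dagla was 8.66%, 11.1% and 9.95% in libraries 2, 3 and 2600, and 14.3%, 20.1% and 14.5% of the sum in scrambled libraries 28, 30 and 31. The 3 hydrolases together stood at 10.3 ± 1.04 times the 2 lipases per kb in S100a11 shRNA libraries and 6.28 ± 0.48 times in scrambled libraries (SD, n = 3 each), with no overlap.

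The genes of the anandamide branch pointed opposite ways. Napepld, a phospholipase D that releases N-acylethanolamines, lies on the minus strand of chromosome 5 (21662901 to 21701396). It held 3.93, 2.88 and 3.12 CPM in libraries 2, 3 and 2600, against 4.80, 4.55 and 4.67 CPM in scrambled libraries 28, 30 and 31. The S100a11 shRNA libraries were all lower, with a log2 change of -0.50 ± 0.19 (SE), or -0.68 without library 2. Faah, the amidase that hydrolyses anandamide, lies on the minus strand of chromosome 4 (115967145 to 116017926) and was the second most abundant of the 9 genes. Its levels were 243, 281 and 310 CPM in libraries 2, 3 and 2600, against 210, 194 and 208 CPM in scrambled libraries 28, 30 and 31. The S100a11 shRNA libraries were all higher, with a log2 change of 0.45 ± 0.14 (SE). With library totals alone that change was 0.08 and the groups overlapped. The hepatocyte markers had a similar median change, 0.41, and their part in the Faah value was not tested. Per kb, and free of that scaling, Faah was 31.2, 49.3 and 50.2 times as abundant as Napepld in libraries 2, 3 and 2600, against 22.1, 21.6 and 22.5 times in scrambled libraries 28, 30 and 31.

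Both receptor genes were below all of the hydrolases, and Cnr1 was near the detection limit. Cnr1 lies on the plus strand of chromosome 4 (33924593 to 33948831) and had 6, 0 and 15 counts in libraries 2, 3 and 2600, against 27, 62 and 51 counts in scrambled libraries 28, 30 and 31. In CPM this is 0.093, 0 and 0.34 in the S100a11 shRNA libraries, against 0.40, 0.90 and 0.59 in the scrambled ones. The groups did not overlap, but the exact 95% Poisson interval of library 2600, 0.19 to 0.56 CPM, overlaps that of scrambled library 28, 0.26 to 0.58 CPM. In library 3 a count of 0 allows up to 0.059 CPM by the same exact interval, or 0.048 CPM by the limit of 3 counts. The ratio of group means was 4.36-fold in the direction of lower Cnr1 in S100a11 shRNA libraries. The fitted log2 change of -2.30 ± 0.72 (SE) was -1.66 without library 3 and -3.70 without library 2600. These intervals and the limit cover counting error only. CB1 is known in stellate cells as well as hepatocytes, and of 8 stellate cell markers, none at 0, 4 were called lower, with sums of 417 to 499 CPM in S100a11 shRNA libraries and 568 to 714 CPM in scrambled libraries. Their part in the Cnr1 difference was not tested.

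Cnr2, on the plus strand of chromosome 4 (135895394 to 135920207), stood at 6.30, 7.18 and 9.03 CPM in libraries 2, 3 and 2600, against 5.66, 5.84 and 5.73 CPM in scrambled libraries 28, 30 and 31. The S100a11 shRNA libraries were all higher, library 2600 most, with a log2 change of 0.38 ± 0.18 (SE). Without library 2600 the change was 0.21, and with library totals alone it was 0.01 with overlapping groups. Cnr2 is known as a receptor of B cells and macrophages. All 8 B cell markers were detected and lower by sign (1 of 8 past the threshold), with a summed level of 10.6 to 12.9 CPM in S100a11 shRNA libraries and 17.8 to 20.1 CPM in scrambled libraries. Of 8 macrophage markers 7 were lower by sign and 4 were called lower (Trem2, Gpnmb, Cd14 and Cd68), with overlapping sums of 231 to 520 CPM in S100a11 shRNA libraries and 459 to 674 CPM in scrambled libraries, and Clec4f had a log2 change of 0.00. The macrophage sums were 405, 231 and 520 CPM in libraries 2, 3 and 2600. Library 2600 was thus highest in both the sum and Cnr2, while library 2 was above library 3 in the sum and below it in Cnr2. The part of these cells in the Cnr2 difference was not tested. In bulk tissue fewer cells of a type and less RNA per cell cannot be told apart. Fuca1, a lysosomal fucosidase gene looked at after its values were seen, begins 528 bases after Cnr2 on the same strand and held 42.9 to 56.6 CPM in S100a11 shRNA libraries and 38.0 to 45.1 CPM in scrambled libraries. Its part in the Cnr2 count was not tested.

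**Figure D3:**
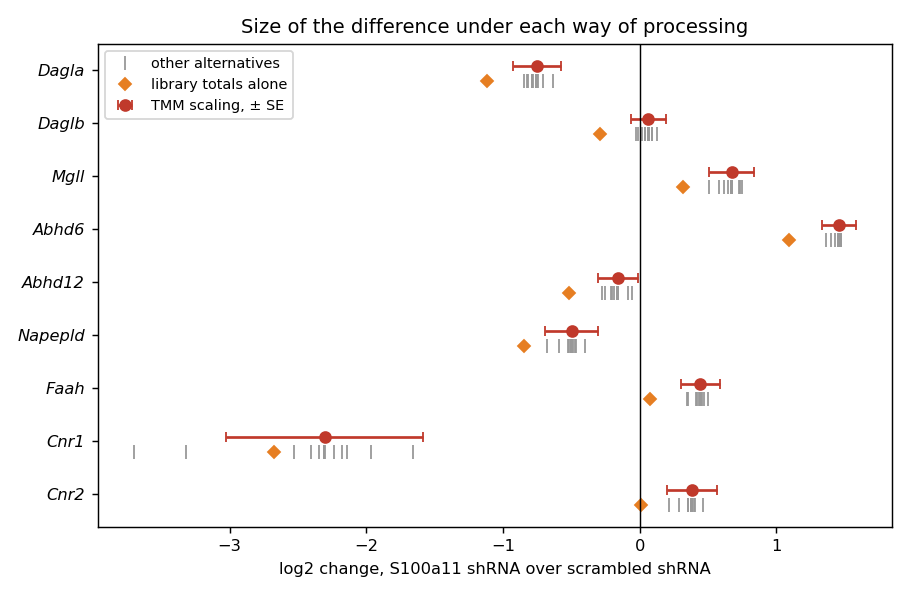
Log2 change of each gene, S100a11 shRNA over scrambled shRNA, with TMM scaling (red points, bars are the SE of the edgeR fit), with library totals alone (orange diamonds) and under every other alternative (grey ticks, leave-one-out values included). Abhd6 stays between 1.10 and 1.48, Faah and Cnr2 come close to 0 with library totals alone, and Daglb lies on both sides of 0.

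Per kb of gene length (RPKM, from TMM-scaled CPM and the deposited lengths), the order of levels changed around Abhd6. In S100a11 shRNA libraries it was Mgll (75.1 ± 11.7), Faah (35.5 ± 4.28), Abhd6 (19.9 ± 1.31), Abhd12 (10.6 ± 1.18), Daglb (9.24 ± 0.32), Cnr2 (1.88 ± 0.35), Dagla (1.01 ± 0.11), Napepld (0.84 ± 0.14) and Cnr1 (0.022 ± 0.027) RPKM (SD, n = 3). In scrambled libraries it was Mgll (47.1 ± 4.44), Faah (26.0 ± 1.10), Abhd12 (11.9 ± 1.40), Daglb (8.84 ± 0.89), Abhd6 (7.24 ± 0.11), Dagla (1.70 ± 0.23), Cnr2 (1.44 ± 0.023), Napepld (1.18 ± 0.032) and Cnr1 (0.098 ± 0.039) RPKM (SD, n = 3). Dagla and Napepld overlapped across S100a11 shRNA libraries, and Abhd12 and Daglb there were separated by less than 1 SD of Abhd12 at their nearest values. No other neighbours in either order overlapped. Within groups the spread of Abhd6 CPM was among the smaller, a coefficient of variation of 6.56% in S100a11 shRNA libraries and 1.47% in scrambled libraries, while Mgll varied by 15.6% and 9.43%.

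Log2 CPM of Faah and Mgll followed Abhd6 over the 6 libraries (Pearson r of 0.92 and 0.89), and Dagla and Napepld ran against it (r of -0.91 in each case). The 6 genes with the highest r were sought among 11892 tested protein-coding genes with mean CPM of 2 or more. Predicted models and clones were left out. These 6 were Ahcy, Rfng, Ubap1, Uck1, Usp24 and Kit. Their r lay between 0.995 and 0.997, and all of these values mainly trace the separation of the same groups of 3. Ahcy, which encodes S-adenosylhomocysteine hydrolase, had nearly the same log2 change as Abhd6, 1.47, with means of 693 and 250.5 CPM in S100a11 shRNA and scrambled libraries. The others changed by 0.29 to 1.06 on the log2 scale.

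Genes around the pathway were examined in 7 lists of 101 genes. Of 91 tested, 10 were called higher and 11 lower, 23.1% beside 14.1% of all tested genes, with a median log2 change of 0.17 beside 0.04. Nothing is read from this share or median, because the lists were chosen with earlier results of these data known. The calls were 5 higher and 25 lower with library totals alone, and 4 and 4 without scrambled library 30. Calls numbered 13 without library 3 (9 higher) and 12 without scrambled library 31 (7 higher). A single gene, Abhd4, stands in 2 of the lists.

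**Figure D4:**
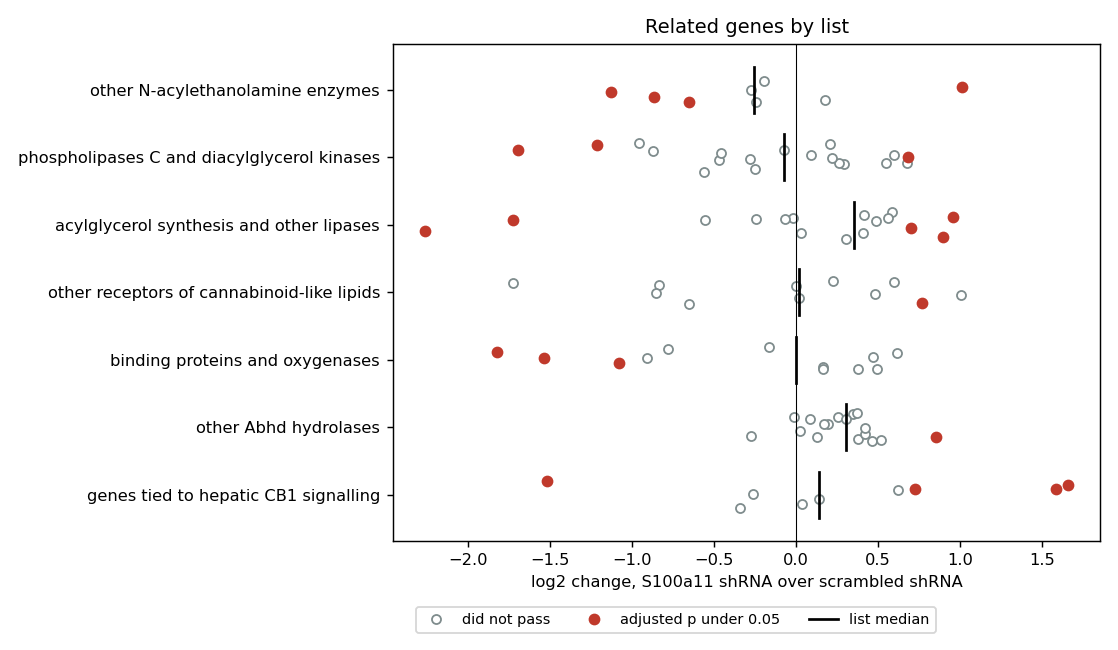
Log2 change, S100a11 shRNA over scrambled shRNA, of each tested gene in the 7 lists (rows; vertical position within a row has no meaning). Filled red points passed an edgeR adjusted p of 0.05, open points did not, and black lines are list medians, which lie between -0.26 and 0.36.

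Other enzymes of N-acylethanolamine metabolism gave 1 rise and 3 falls among 8 tested, 50.0% beside 14.1% of all tested genes. Their median log2 change was -0.26. Gde1, a glycerophosphodiesterase that can release anandamide without Napepld, rose 2.01-fold to 56.4 ± 5.95 CPM in S100a11 shRNA libraries, against 28.0 ± 4.37 CPM in scrambled libraries (SD, n = 3 each; edgeR adjusted p = 0.0070), and remained called under all 15 alternatives. Gdpd1, another phosphodiesterase of these lipids, fell 2.18-fold (1.18 ± 0.44 against 2.53 ± 0.42 CPM, adjusted p = 0.044). That call ended with the legacy quasi-likelihood (adjusted p = 0.052) and without library 3 or scrambled library 28, 30 or 31 (0.10, 0.081, 0.12 and 0.14). The phosphatases Inpp5d and Ptpn22, which have been tied to anandamide release in macrophages and act in leukocytes more widely, fell 1.57-fold and 1.82-fold (adjusted p = 0.012 and 0.014). Inpp5d lost its call without library 3 or scrambled library 30 (adjusted p = 0.052 and 0.067), and Ptpn22 without library 3 or scrambled library 30 or 31 (0.057, 0.067 and 0.064). Of 8 macrophage markers 4 were called lower, with overlapping sums, as given for Cnr2. Their part in the Inpp5d and Ptpn22 falls was not tested. The list count was 1 without library 3 or scrambled library 30 and 2 without scrambled library 31. Without library 2 it was 5, 1 higher and 4 lower, with Abhd4 the added fall.

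Phospholipases C and diacylglycerol kinases, which supply and remove the substrate of Dagla and Daglb, gave 1 rise and 2 falls of 19. This is 15.8% beside 14.1% of all tested genes, with a median log2 change of -0.07. Plcb1 rose 1.60-fold (64.2 ± 10.6 against 40.1 ± 4.82 CPM in S100a11 shRNA and scrambled libraries, SD, n = 3 each; edgeR adjusted p = 0.026). It was not called with library totals alone (adjusted p = 0.23) or without library 3 or scrambled library 28, 30 or 31 (0.094, 0.092, 0.061 and 0.098). The kinase Dgkg fell 2.32-fold (adjusted p = 0.047), but was not called when library 3 or 2600 or any 1 scrambled library was left out (adjusted p of 0.051 to 0.16), with limma voom (0.060) and with the legacy quasi-likelihood (0.052). Plch1, named after its values were seen because it lies under a mean of 1 CPM, fell 3.23-fold (0.47 ± 0.20 against 1.48 ± 0.32 CPM, adjusted p = 0.020), and lost its call without library 3 or scrambled library 30 or 31 (0.062, 0.084 and 0.067). The list count was 10, all lower, with library totals alone, 5 by DESeq2 and without library 2600, 1 without scrambled library 28, and 0 without library 3 or scrambled library 30 or 31.

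Acylglycerol synthesis and lipase genes gave 3 rises and 2 falls of 16 (31.2%; median log2 change 0.36, or -0.02 with library totals alone). The split with library totals alone was 1 rise and 3 falls, the third fall being Pnpla3, a lipid droplet protein gene named after its values were seen (log2 change -0.89, edgeR adjusted p = 0.045). Mogat1, which re-esterifies monoacylglycerol and so competes with its hydrolysis, rose 1.94-fold (8.72 ± 1.21 against 4.48 ± 0.19 CPM in S100a11 shRNA and scrambled libraries, SD, n = 3 each; edgeR adjusted p = 0.011, or 0.060 without scrambled library 30). Its intestinal relative Mogat2, named after its values were seen, fell 3.30-fold at a low level (0.28 ± 0.076 against 0.96 ± 0.070 CPM, adjusted p = 0.010). Dgat2, which completes triglyceride synthesis, rose 1.86-fold (378 ± 74.7 against 203 ± 31.7 CPM, adjusted p = 0.018), but was not called with library totals alone (0.082) or without scrambled library 28 or 30 (0.068 and 0.085). Lipe, hormone-sensitive lipase, which acts on diacylglycerol just before Mgll, rose 1.62-fold (adjusted p = 0.030). Lipe lost its call with upper-quartile factors (adjusted p = 0.051), with library totals alone (0.19) and when library 3 or 2600 or any 1 scrambled library was left out (0.071 to 0.11). Lpl, lipoprotein lipase, fell 4.80-fold (55.9 ± 18.5 against 268 ± 55.3 CPM, adjusted p = 0.0035) and stayed called under all 15 alternatives. Lpl is also a gene of lipid-laden macrophages. As given for Cnr2, 4 of 8 macrophage markers were called lower, with overlapping sums. Their part in the Lpl fall was not tested. Without scrambled library 30 the list count was 2, both falls.

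Among other receptors of these lipids 1 of 11 was called, 9.09% beside 14.1% of all tested genes. Ppara, the nuclear receptor activated by the N-acylethanolamines oleoylethanolamide and palmitoylethanolamide as well as by fatty acids, rose 1.70-fold (446 ± 41.0 against 262 ± 13.1 CPM in S100a11 shRNA and scrambled libraries, SD, n = 3 each; edgeR adjusted p = 0.012). Its call ended with library totals alone (adjusted p = 0.077) and without scrambled library 30 (0.065), which left the list with no call. The list count was 2 without library 2600 and with upper-quartile factors, in both cases with Trpv2 (named after its values were seen) called lower, and library totals alone gave 3 falls and no rise. The median log2 change of the list was 0.02, or -0.33 with library totals alone. Falls numbered 0 by edgeR with all 6 libraries and TMM, 4 at an unadjusted p under 0.05, 2 by DESeq2 and 0 by limma voom. Gpr119 had no count in any library.

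Binding proteins and oxygenases of endocannabinoids gave 3 falls of 12, 25.0% beside 14.1% of all tested genes. Their median log2 change was 0.00, or -0.36 with library totals alone. The rises numbered 0 by edgeR with all 6 libraries and 1 without library 2600 (Fabp1, named after its values were seen), 2 at an unadjusted p under 0.05, 2 by DESeq2 and 0 by limma voom. Fabp5, an intracellular carrier of anandamide, fell 2.90-fold (5.62 ± 1.11 against 16.3 ± 2.84 CPM in S100a11 shRNA and scrambled libraries, SD, n = 3 each; edgeR adjusted p = 0.0046) and kept its call under all 15 alternatives. Fabp4, the carrier of adipocytes and macrophages, fell 2.12-fold (adjusted p = 0.021, but 0.077, 0.087 and 0.062 without library 3 and scrambled libraries 30 and 31). Alox5, a leukocyte lipoxygenase named after its values were seen, fell 3.54-fold near the floor (0.16 ± 0.066 against 0.55 ± 0.024 CPM, adjusted p = 0.018). It was not called without library 3 or scrambled library 30 or 31 (0.073, 0.072 and 0.062). Macrophage markers were called lower in 4 of 8 cases, with overlapping sums, as given for Cnr2. Their part in the falls of Fabp5, Fabp4 and Alox5 was not tested. Only 1 gene of the list was called without library 3 and likewise without scrambled library 30 or 31.

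The other Abhd hydrolases showed 1 call in 17 tested, 5.88% beside 14.1% of all tested genes. Abhd15, which in adipocytes takes part in the insulin control of lipolysis, rose 1.81-fold (68.4 ± 8.20 against 37.8 ± 1.59 CPM in S100a11 shRNA and scrambled libraries, SD, n = 3 each; edgeR adjusted p = 0.0070) and stayed called under all 15 alternatives. By sign 15 of the 17 were higher, and the median log2 change was 0.31 (-0.05 when scaled by library totals alone). Falls numbered 0 by edgeR with all 6 libraries, 0 at an unadjusted p under 0.05, 0 by DESeq2 and 0 by limma voom. Without library 2, however, Abhd4 was called lower (log2 change -0.62, edgeR adjusted p = 0.021). The list count was then 2, and it was also 2 by DESeq2, where Abhd16a was called higher, and without library 3, where Abhd17a was. These 3 genes are named after their values were seen.

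Genes that mouse studies have placed downstream of CB1 in hepatocytes gave 3 rises and 1 fall of 9, 44.4% beside 14.1% of all tested genes. Their median log2 change was 0.14, or -0.21 with library totals alone. The gluconeogenic gene Pck1 rose 3.16-fold (3138 ± 522 against 993 ± 305 CPM in S100a11 shRNA and scrambled libraries, SD, n = 3 each; edgeR adjusted p = 0.0093), and G6pc, which releases glucose, rose 3.00-fold (481 ± 185 against 161 ± 35.1 CPM, adjusted p = 0.011). Both stayed called under all 15 alternatives. Creb3l3, a liver transcription factor of lipid and glucose metabolism, rose 1.65-fold (395 ± 47.9 against 239 ± 4.09 CPM, adjusted p = 0.016). The Creb3l3 call ended with library totals alone (adjusted p = 0.10) and without library 3 or scrambled library 28, 30 or 31 (0.059, 0.057, 0.071 and 0.068). The hormone gene Fgf21 fell 2.87-fold (6.44 ± 1.72 against 18.5 ± 4.15 CPM, edgeR adjusted p = 0.0069) and stayed called under all 15 alternatives. The lipogenic genes Srebf1, Fasn, Acaca and Scd1 did not pass the threshold, with log2 changes of 0.03, -0.34, -0.26 and 0.14. Lpin1 did not pass it either (255.8 ± 99.1 against 166.0 ± 65.3 CPM, log2 change 0.62 ± 0.36, SE; edgeR adjusted p = 0.29). Acaca was called lower without library 2 (log2 change -0.44, edgeR adjusted p = 0.045) and with library totals alone (-0.61, adjusted p = 0.038). The list thus had 2 rises and 2 falls with library totals alone.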

How the data were processed

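Liver RNA was sequenced in 6 libraries, and the authors deposited raw counts per gene for 43346 genes, with gene spans and lengths. The build is mm10 per the submitters' processing notes; the sources used here give no aligner, counting tool or strand setting. All 37 mitochondrial genes are listed at 0. Depth was 53517387 to 78091845 counts per library. Of the gene IDs, 42462 matched GENCODE M21.

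Genes were filtered with filterByExpr (minimum count 10, minimum total count 15), leaving 19352, scaled by TMM and fitted with edgeR 4.0.16 (glmQLFit without the legacy option, then glmQLFTest; R 4.3.3), with Benjamini-Hochberg adjustment over all tested genes and a threshold of 0.05. SE is the log2 change divided by the square root of F. RPKM and shares use the deposited lengths. Exact Poisson intervals (95%) and the limit for a count of 0 (3 counts) cover counting error only.

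The 9 genes and all lists were chosen with earlier results of these data known. Named were, per list, up to 4 called genes with the smallest p and a mean of at least 1 CPM, the 6 genes (mean of at least 2 CPM) most correlated with Abhd6 in log2 CPM (prior count 2), the neighbours of Abhd6 and overlapping genes. Alternatives were other scalings, filters (none, or at least 1 CPM in 3 libraries), removal of the 20 most abundant genes, DESeq2 1.42.0, limma voom (limma 3.58.1), leaving out each library, and, added after seeing the data, edgeR's legacy quasi-likelihood.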

Additional observations from a re-analysis of the deposited data

How the results depend on the processing

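No paired analysis was possible because the groups share no replicate numbers. With 15 alternatives, the log2 change of Abhd6 moved beyond the spread between libraries only with upper-quartile factors (1.36) and library totals alone (1.10), and it ran from 1.40 to 1.48 as each library was left out. The log2 change of Daglb turned to -0.29 with library totals alone, to -0.03 with upper-quartile factors and to -0.01 without scrambled library 30. Genes called numbered 2728 with the design as reported, 4367 with library totals alone (9.09% of them higher, beside 41.3%), and 724 to 4176 as each library was left out, with 30.5% higher without scrambled library 30. List counts that moved were phospholipases C and diacylglycerol kinases (10 with library totals alone, 5 by DESeq2), other receptors (2 with upper-quartile factors, 3 with library totals alone, 3 by DESeq2), binding proteins and oxygenases (5 by DESeq2) and other Abhd hydrolases (2 by DESeq2). Over all 7 lists the split of 10 higher and 11 lower became 5 and 25 with library totals alone and 4 and 4 without scrambled library 30. As each library was left out, counts ran from 1 to 5 for N-acylethanolamine enzymes, 0 to 5 for phospholipases C and diacylglycerol kinases, 2 to 6 for acylglycerol genes, 0 to 2 for other receptors, 1 to 4 for binding proteins, 1 to 2 for other Abhd genes and 3 to 5 for genes tied to CB1. The cause was not tested. Cnr1 was too low to pass the filter of at least 1 CPM in 3 libraries and has no value there.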
